A study of Mus musculus with 6 samples.

Results

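The lysosome and autophagy genes examined here are a list of 50 mouse genes, chosen by name, that encode lysosomal membrane proteins, acid hydrolases, subunits of the proton pump and the machinery that forms autophagosomes. Of these, 49 had a probe set annotated to a single gene symbol, out of 12393 such genes on the array. Where a gene had several probe sets, the one brightest on average over the 6 arrays (mean log2 signal) stood for it, and Cd63, the remaining gene of the list, was not analysed here. A signal of 20.1, the 50th percentile of a typical array, was set as a floor and used as the lower limit of measurement. By that limit 40 of the genes were above the floor on every array. Testing required 2 arrays above it, which 43 genes met. The 5 genes that stayed below the floor on all 6 arrays were the cathepsin genes Ctsh and Ctsl, the galactosylceramidase gene Galc, the sulfamidase gene Sgsh and Map1lc3a.

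Lysosomes are acid compartments in which hydrolases break down proteins, glycans and lipids, and a proton pump, the V-ATPase, keeps them acid. In autophagy, membrane sheets marked by lipid-linked proteins of the ATG8 family enclose cytoplasm and fuse with lysosomes. Many genes of both systems carry CACGTG-type elements and are switched on by the transcription factors TFEB, TFE3 and MITF, which growth factor signalling through the mTORC1 kinase holds in the cytoplasm.

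The arrays came from Ba/F3, a mouse pro-B cell line that depends on interleukin 3 (IL3) unless an active kinase takes its place. The first line carried ETV6-PDGFRB and the second FIP1L1-PDGFRA, both fusion genes of leukaemia that encode constantly active receptor kinases, delivered in a pMSCV vector. The labels of both lines give selection, without saying for what, and name no IL3. The control line carried the empty pMSCV vector and was kept in IL3. Every line was measured untreated and after 4 h with 100 nM imatinib (Glivec), which inhibits PDGF receptor, ABL and KIT kinases, with 1 array per line and treatment. All cells grew in medium with 10% serum, and whether a line was 1 clone or a pool is not given in the sources used here. No comparison within a line has a replicate check. In bulk RNA, fewer cells that express a gene and less of its RNA per cell cannot be told apart.

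The 6 arrays were alike in RNA quality, with 3' to 5' signal ratios of 1.11 to 1.22 for actin and 0.754 to 0.802 for Gapdh. Of 14 pro-B cell markers measured, 4 were above the floor on all arrays (Cd79a, Cd79b, Tcf3 and Ptprc) and 9 on none, among them Pax5, Ebf1, Rag1, Rag2 and Vpreb1, so the labelled cell type was borne out by few of its markers. Of 14 macrophage and myeloid markers 12 were below the floor on every array, the lysosomal macrophage marker Cd68 included. Of 13 mast cell and basophil markers 7 were below the floor on every array, Kit and Fcer1a among them. The summed signal of all 13 was 4132 on the untreated and 5664 on the treated ETV6-PDGFRB array. It was 618 and 1178 on the FIP1L1-PDGFRA arrays and 1192 and 1014 on the IL3 arrays. Few genes carried these sums. Cma1 was 2574 and Cpa3 814 on the untreated ETV6-PDGFRB array, and Gata2 was 743 on the untreated IL3 array.

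The promoters of 4 genes are given as examples with and without CACGTG, a sequence that some of the lysosomal genes share. Mcoln1 rose with imatinib, Lamp1 and Ctsd did not pass the test, and Ctsc fell. Each line gives the 250 bases before the gene's start, on the gene's strand, from the RefSeq promoter table of build GRCm38.p6. They lie at chr8:3500269-3500518 (plus strand) for Mcoln1, chr8:13158911-13159160 (plus strand) for Lamp1, chr7:142387828-142388077 (minus strand) for Ctsd and chr7:88277835-88278084 (plus strand) for Ctsc. Capitals mark CACGTG, extended to 8 letters where it lies within TCACGTGA.
Mcoln1: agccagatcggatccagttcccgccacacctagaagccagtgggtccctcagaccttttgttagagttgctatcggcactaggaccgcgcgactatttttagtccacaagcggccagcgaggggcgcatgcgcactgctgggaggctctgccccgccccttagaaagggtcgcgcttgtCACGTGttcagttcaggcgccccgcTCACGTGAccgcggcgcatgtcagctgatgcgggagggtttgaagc
Lamp1: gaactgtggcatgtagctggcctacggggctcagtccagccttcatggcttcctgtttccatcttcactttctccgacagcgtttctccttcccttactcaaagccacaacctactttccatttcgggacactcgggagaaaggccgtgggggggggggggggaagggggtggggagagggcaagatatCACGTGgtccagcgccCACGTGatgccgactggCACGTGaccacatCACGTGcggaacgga
Ctsd: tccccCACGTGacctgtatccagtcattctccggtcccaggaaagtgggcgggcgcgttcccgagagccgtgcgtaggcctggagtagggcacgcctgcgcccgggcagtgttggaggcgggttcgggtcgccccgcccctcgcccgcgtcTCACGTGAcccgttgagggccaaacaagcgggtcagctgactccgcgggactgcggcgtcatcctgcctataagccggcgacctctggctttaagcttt
Ctsc: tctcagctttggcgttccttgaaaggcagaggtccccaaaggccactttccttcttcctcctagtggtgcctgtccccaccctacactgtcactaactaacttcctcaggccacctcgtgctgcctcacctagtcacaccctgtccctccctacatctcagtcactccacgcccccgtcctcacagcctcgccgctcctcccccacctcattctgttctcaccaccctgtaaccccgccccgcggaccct
The Lamp1 stretch holds CACGTG at 4 places and the Mcoln1 and Ctsd stretches at 2 each, while the Ctsc stretch has none.

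The 300-base windows of the table, which run from 250 bases before the start to 50 after it, were matched by symbol for 41 of the 49 genes. CACGTG, which reads the same on both strands, was found for 16 of these 41 genes (39.0%), against 8.09% of all 27025 genes in the table. The longer TCACGTGA, which contains CACGTG and is also its own reverse complement, was found for 8 of them (19.5%), against 1.12% of all genes. The 8 were Atg3, Atp6v0d1, Atp6v1a, Cln3, Ctsa, Ctsd, Gla and Mcoln1. In Mcoln1 it begins 46 bases before the start, in Ctsd 99 bases before it, and in Atp6v0d1 it spans the start itself. A match is a run of letters and does not show that a factor binds there. The motifs were chosen with the responses known, and no test was made of these shares.

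Responses to imatinib are set beside the motifs as a description, with no test. Of 14 tested genes with CACGTG, 2 rose and 0 fell, with a median log2 change of 0.06, and of 23 tested genes without it 3 rose and 2 fell, with a median of 0.11. For TCACGTGA the order was the other way round, with a median of 0.18 over the 8 genes that hold it (2 rose, 0 fell) and 0.07 over the 29 that do not (3 rose, 2 fell). TGTTTAC, a FOXO-type element searched on both strands, was in none of the 41 windows, against 4.05% of all genes. TTCNNNGAA, a STAT-type element, was found for 5 of them (12.2%), namely Cln3, Ctsc, Gabarap, Gabarapl1 and Wipi1, against 9.55% of all genes.

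Imatinib left most lysosome and autophagy genes of the fusion lines within a narrow range. The 5 genes that rose were Mcoln1, a lysosomal calcium channel gene, Ulk2, an autophagy kinase gene, the ATG8 family genes Map1lc3b and Gabarap, and Atp6v0d1, a subunit of the proton pump. The cathepsin genes Ctsc and Ctss fell. The 6 called genes other than Ctss had fitted changes under 1 on the log2 scale, and for Ctss, which was below the floor on 1 treated array, no fitted size is given. These calls come from limma with Benjamini-Hochberg adjustment over all 6808 genes tested (adjusted p under 0.05), with the line as a block and both fusion lines treated as repeats, so that the p-values reflect how the lines differ, not how repeat cultures vary, which these single arrays do not show. Of the 2 residual degrees of freedom, 1 is the difference between the fusion lines' responses and 1 the difference between the IL3 arrays, which the fit takes as spread and so assumes to hold no imatinib effect. With the 4 fusion arrays alone, where that assumption is not made, 2 genes rose (Mcoln1 and Ulk2) and 3 fell (Ctsc, Ctss and Atp6v1h). Of all 6712 genes tested in that fit, 667 rose and 668 fell.

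Of 43 tested genes 5 rose (11.6%), against 13.5% of all genes tested, and 2 fell (4.65%), against 12.4% of all genes. The share that rose is near the share of all genes, and the remaining 36 did not pass. The log2 change was above 0 for 30 of the 43 (69.8%), against 54.4% of all genes, and its median was 0.14, against 0.04 over all genes. Of the 34 genes that did not pass and were above the floor on all 4 fusion arrays, 29 had a 95% confidence interval of the limma estimate that stayed within a 1.5-fold change either way, and 32 within a 2-fold change. Over everything tested, the interval stayed within 1.5-fold for 33 of the 43 genes (76.7%) and for 55.0% of all genes.

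The plot of array signals shows the 7 genes that passed. The limma fit picked these genes on the same arrays, so a gap between the treated fusion arrays and the others adds no support. How many of all genes have such a gap was not counted.

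**Figure D1:**
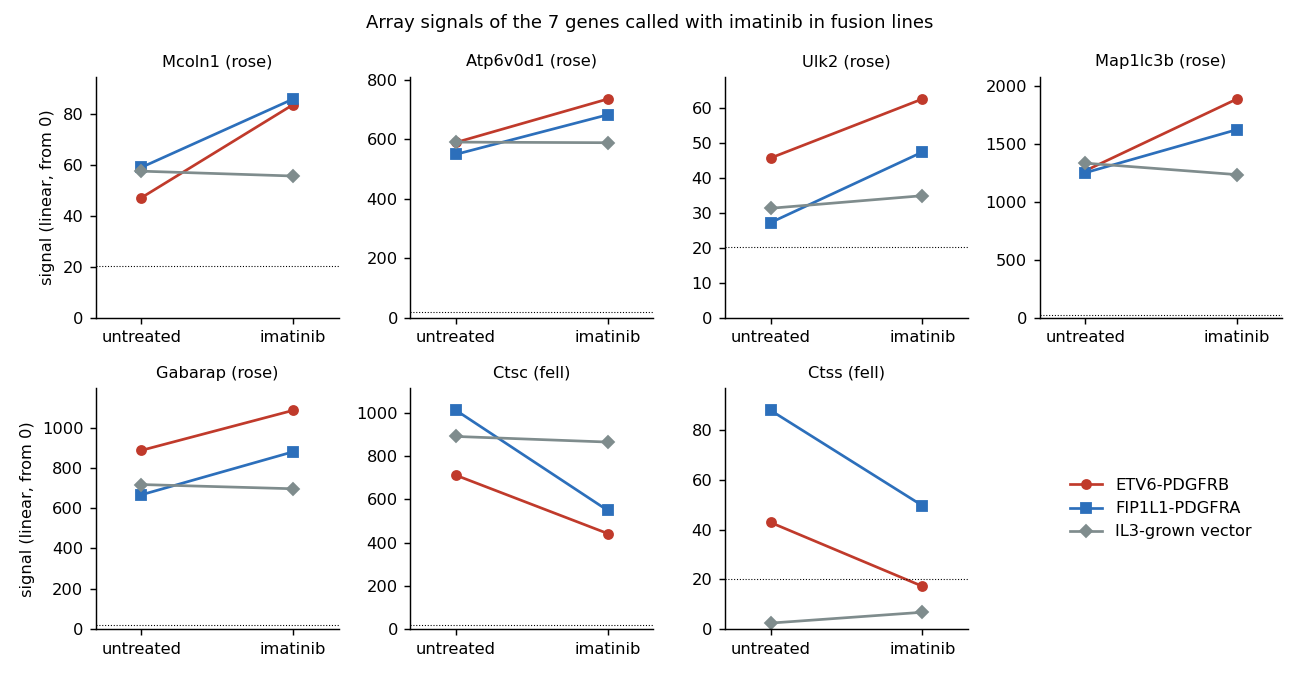
Signal on a linear scale from 0 for the 7 genes called by limma, with 1 point per array and a line joining the untreated and the imatinib array of each cell line; the dotted line is the signal floor of 20.1. Mcoln1, Ulk2, Map1lc3b and Atp6v0d1 lie higher on both treated fusion arrays than on the other 4 arrays, Ctsc lies lower on both than on the other 4, and the IL3 lines are nearly flat.

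Among membrane proteins, Mcoln1 encodes a channel that releases calcium from lysosomes. Its signal went from 47.0 to 83.5 in the ETV6-PDGFRB line, from 58.9 to 85.7 in the FIP1L1-PDGFRA line and from 57.4 to 55.5 in IL3-grown cells. Both treated fusion arrays were above the other 4 arrays, and Mcoln1 rose by 0.69 ± 0.11 on the log2 scale (SE, limma adjusted p = 0.0140). The interval ran from 1.33-fold to 1.94-fold. A weaker probe set of the gene went from 38.3 to 52.9, from 37.2 to 49.5 and from 42.7 to 26.7, and with the mean of both probe sets limma gave an adjusted p of 0.0579 (range 0.00736 to 0.0579 over the 6 other processing settings).

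The remaining membrane genes did not pass. Lamp1, a main glycoprotein of the lysosomal membrane, had signals of 818 and 865 in the ETV6-PDGFRB line, 888 and 1061 in the FIP1L1-PDGFRA line and 917 and 935 in IL3 cells, and the interval of its change was 0.95-fold to 1.33-fold. Lamp2, its relative, went from 517 to 671 in the ETV6-PDGFRB line but from 426 to 381 in the FIP1L1-PDGFRA line, with 424 and 415 in IL3 cells. Of its 3 other probe sets 2 were higher with imatinib in both fusion lines, at log2 ratios of 0.37 and 0.26 for one and 0.08 and 0.09 for the other. Npc2, a cholesterol carrier of the lysosomal lumen, had signals of 1342 and 1334, 1194 and 1311, and 1061 and 1060. Its partner gene Npc1 and the Batten disease gene Cln3 stayed close to the floor, between 16.4 and 23.2 and between 14.2 and 28.2.

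The lysosomal proteases held both genes that fell. Ctsc encodes cathepsin C, which trims and activates serine proteases of granules. The Ctsc signal went from 712 to 442 in the ETV6-PDGFRB line, from 1013 to 549 in the FIP1L1-PDGFRA line and from 892 to 866 in IL3 cells. Both treated fusion arrays were below the other 4 arrays, and Ctsc fell by 0.79 ± 0.10 on the log2 scale (limma adjusted p = 0.00848). It kept its call under all 6 other processing settings, the only one of the 7 genes to do so, with adjusted p from 0.00414 to 0.0225.

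Ctss encodes cathepsin S, a protease that cuts the invariant chain of MHC class II. Its signal went from 42.9 to 17.2, which is below the floor, in the ETV6-PDGFRB line and from 88.1 to 49.7 in the FIP1L1-PDGFRA line, while both IL3 arrays were below the floor at 2.35 and 6.71. It was called as lower (limma adjusted p = 0.00729), by at least 2.14-fold in the first line and 1.77-fold in the second. That p is too small, since the arrays set to the floor cannot vary. With a floor at the 60th percentile the call was lost (adjusted p = 0.140, range 0.00314 to 0.140 over the 6 other settings). Of 14 macrophage and myeloid markers, the 2 above the floor on all arrays did not move alike. Adgre1 went from 61.4 to 46.2, from 270 to 174 and from 284 to 305. Csf1r went from 31.1 to 34.0, from 32.3 to 32.7 and from 30.9 to 32.8. The part of these markers in the Ctss result was not tested.

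The other cathepsins that were measured did not pass. Ctsd, the main aspartic protease of lysosomes, had signals of 284 and 355, 266 and 297, and 291 and 280, a log2 change of 0.24 ± 0.09 (limma adjusted p = 0.116). Ctsb, a cysteine protease, had 408 and 497, 408 and 447, and 412 and 389. Ctsa, a carboxypeptidase that also protects other lysosomal enzymes, had 268 and 287, 206 and 244, and 242 and 274, so that its ratio in IL3 cells lay between those of the fusion lines. Tpp1, a tripeptidyl peptidase, had opposite ratios, with 625 and 577 in the ETV6-PDGFRB line and 370 and 486 in the FIP1L1-PDGFRA line, and 410 and 416 in IL3 cells.

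None of the 11 tested hydrolases of glycans and lipids passed. Their median log2 change was 0.07, and 6 of the 11 were above 0. Lipa, the acid lipase that frees cholesterol, had signals of 82.4 and 98.8, 57.9 and 71.0, and 57.8 and 58.1, a log2 change of 0.28 ± 0.08 (limma adjusted p = 0.0668). Hexa, a subunit of hexosaminidase, had 532 and 681, 383 and 433, and 392 and 401 (0.27 ± 0.09, adjusted p = 0.0939). Gusb, beta-glucuronidase, had lower values with imatinib, at 265 and 230, 253 and 210, and 309 and 306 (-0.24 ± 0.09, adjusted p = 0.0991). Psap, the precursor of the saposins that help lipid hydrolases, had 428 and 464, 366 and 469, and 360 and 352. For Gaa, Gla, Glb1, Neu1, Naglu, Asah1 and Ppt1 the log2 change lay between -0.20 and 0.15.

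The pump genes differed from each other. Atp6v0d1, of the membrane sector, went from 589 to 735 in the ETV6-PDGFRB line, from 549 to 682 in the FIP1L1-PDGFRA line and from 590 to 588 in IL3 cells, and rose by 0.32 ± 0.08 (limma adjusted p = 0.0491). Atp6v1a, the subunit that splits ATP, had 279 and 255, 266 and 292, and 295 and 294, with an interval of 0.84-fold to 1.20-fold. Atp6v1h, a regulatory subunit, had lower values with imatinib in all 3 lines, at 164 and 121, 158 and 93.4, and 168 and 123, and did not pass (-0.59 ± 0.18, limma adjusted p = 0.0660). Its difference in IL3 cells counts as spread in that fit, and with the 4 fusion arrays alone it was called as lower. Atp6ap1, an accessory subunit, had 367 and 386, 348 and 348, and 311 and 332.

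The transcription factor gene Tfeb was above the floor on 1 array only, the treated ETV6-PDGFRB array at 28.6, and was not tested. Its signals on the other arrays were 6.64 to 17.4.

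Among genes that start autophagy, Ulk2 encodes a kinase of the initiating complex. Its signal went from 45.7 to 62.6 in the ETV6-PDGFRB line, from 27.2 to 47.4 in the FIP1L1-PDGFRA line and from 31.3 to 34.9 in IL3 cells. It rose by 0.63 ± 0.12 (limma adjusted p = 0.0242), and both treated fusion arrays were above the other 4, by a narrow margin, since the untreated ETV6-PDGFRB array was near the treated FIP1L1-PDGFRA array. Both other probe sets of the gene were higher with imatinib in each fusion line, at log2 ratios of 0.34 and 0.42 and of 0.33 and 0.47. The call was lost at the 60th percentile floor (adjusted p = 0.0671) and with a pseudocount of 16 in place of the floor (adjusted p = 0.0652), out of a range of 0.0191 to 0.0671 over the 6 other settings.

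Wipi1, which reads a lipid of the growing membrane, had the highest single ratio of the list but not a call. Its signals were 25.3 and 32.1, 20.5 and 43.0, and 23.7 and 35.9, so it was higher with imatinib in IL3 cells too (0.71 ± 0.26, limma adjusted p = 0.104). A second probe set had 18.3 and 34.3, 16.3 and 35.6, and 30.8 and 30.3. Becn1, of the lipid kinase complex that starts the membrane, had 288 and 335, 321 and 342, and 273 and 289. Uvrag, its partner, had 86.3 and 86.4, 68.7 and 84.7, and 75.1 and 69.5. Wipi2 had 80.3 and 87.9, 82.8 and 71.8, and 83.0 and 61.7. Its second probe set went the opposite way in each line, with 75.3 and 70.7, 68.5 and 76.6, and 64.1 and 80.9.

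The enzymes that attach ATG8 proteins to lipid did not pass. Atg3, the E2-like enzyme of this reaction, had 581 and 478, 582 and 506, and 535 and 559 (-0.24 ± 0.09, limma adjusted p = 0.101). Atg12, which is joined to the product of Atg5, had 63.3 and 72.3, 76.8 and 106, and 74.6 and 68.7 (0.33 ± 0.11, adjusted p = 0.0842). Atg5 itself and the protease gene Atg4b had log2 changes of 0.11 and 0.00. Atg7, the E1-like enzyme, was close to the floor, at 21.6 to 34.0, and its 2 fusion line ratios had opposite signs.

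The ATG8 family split into genes that rose and genes that did not. Map1lc3b encodes the family member most used as a marker of autophagosomes. Here the signal went from 1265 to 1884 in the ETV6-PDGFRB line, from 1248 to 1620 in the FIP1L1-PDGFRA line and from 1331 to 1232 in IL3 cells. Both treated fusion arrays were above the other 4 arrays, and it rose by 0.48 ± 0.10 (limma adjusted p = 0.0284). Its 2 other probe sets above the floor went the same way, at log2 ratios of 0.52 and 0.73 and of 0.77 and 0.65 in the fusion lines and -0.08 and -0.14 in IL3 cells. With the mean of all its probe sets the log2 change was 0.81, and with hybridization control scaling it was 0.25. The limma call was lost on that scale (adjusted p = 0.151), at the 40th percentile floor (0.0538), with log2(signal + 16) (0.0598) and with the 4 fusion arrays alone (0.0518).

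Gabarap, of the other branch of the family, went from 888 to 1087, from 667 to 881 and from 718 to 697, and rose by 0.35 ± 0.09 (limma adjusted p = 0.0442). The groups overlap, since the untreated ETV6-PDGFRB array was above the treated FIP1L1-PDGFRA array. Gabarapl1 had 241 and 212, 263 and 249, and 296 and 342, and Gabarapl2 had 385 and 336, 402 and 442, and 446 and 361. Neither passed (adjusted p = 0.401 and 0.891 by limma). The difference in response between family members was not tested.

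Sqstm1, which encodes a receptor that carries ubiquitin-tagged cargo into autophagosomes, lay next to the threshold. Its level went from 845 to 1179 in the ETV6-PDGFRB line, from 1014 to 1226 in the FIP1L1-PDGFRA line and from 1139 to 1059 in IL3 cells, a log2 change of 0.38 ± 0.10 (limma adjusted p = 0.0501).

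Each of the 5 genes that rose lost its call under at least 1 of the 6 other processing settings, and Gabarap lost it under 5 of them. Scaling to the hybridization controls, which are spiked into each sample, moved the median log2 ratio of all genes from 0.03 to -0.15 in the ETV6-PDGFRB line and from 0.05 to -0.22 in the FIP1L1-PDGFRA line. Over all genes 395 then rose and 1880 fell, in place of 916 and 841. On that scale 2 genes of the list rose (Mcoln1 and Ulk2) and 5 fell (Ctsc, Ctss, Gusb, Atp6v1h and Atg3). Map1lc3b (adjusted p = 0.151), Atp6v0d1 (0.486) and Gabarap (0.348) then lost their limma calls, and none of the 7 genes changed sign. With 1 fusion line left out, whichever it was, limma called 0 of all genes, with 2184 at an unadjusted p under 0.05 without ETV6-PDGFRB and 2279 without FIP1L1-PDGFRA.

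Line by line, few of these genes passed a 1.5-fold difference, for which 1 array per group allows no test. In the ETV6-PDGFRB line 1 of 44 was that much higher with imatinib, Mcoln1 at 1.78-fold, against 8.63% of all genes, and 2 were lower, Ctsc at 1.61-fold and Ctss at least 2.14-fold, against 9.24%. In the FIP1L1-PDGFRA line 2 of 43 were higher, Ulk2 at 1.74-fold and Wipi1 at 2.10-fold, against 9.03%. Lower there were 3, Ctsc at 1.85-fold, Ctss at 1.77-fold and Atp6v1h at 1.69-fold, against 8.99%. In IL3 cells 1 of 42 was higher, Wipi1 at 1.51-fold, against 0.914% of all genes, and 0 were lower, against 0.539%. Past 2-fold, Ctss was the 1 gene lower in the ETV6-PDGFRB line (2.86% of all genes) and none was higher (1.61%). Wipi1 was the 1 gene higher in the FIP1L1-PDGFRA line (2.19%) and none was lower (2.97%). In IL3 cells none passed 2-fold either way (0.0749% higher and 0.0599% lower over all genes).

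The plot of ratios shows all 44 genes that had one.

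**Figure D2:**
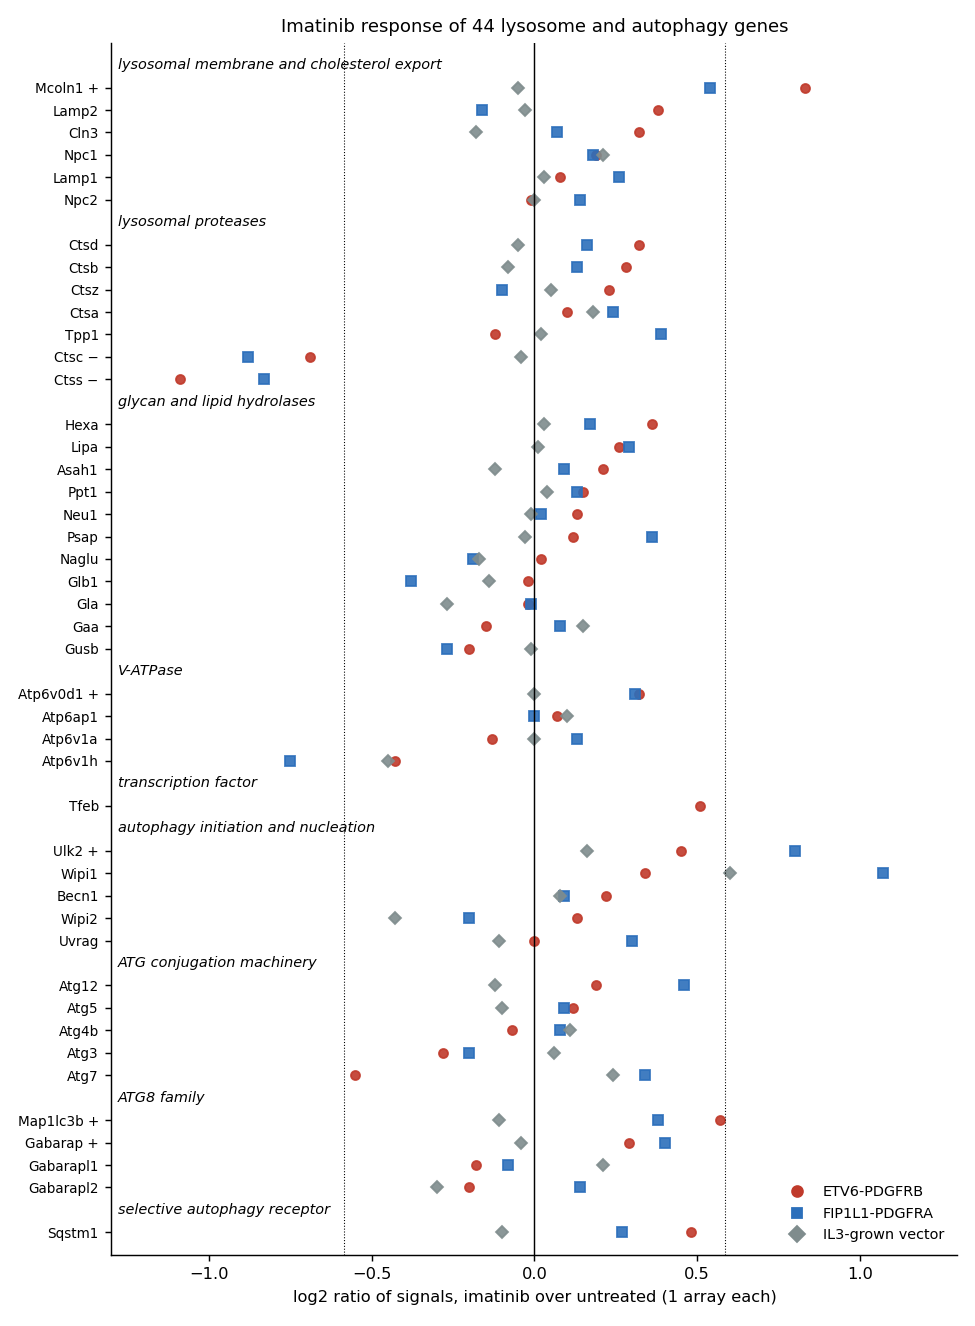
Log2 ratio of signals, imatinib over untreated, for the 44 genes with a measured ratio in a line, grouped by role, with 1 point per cell line; values below the floor were set to it, dotted lines mark 1.5-fold, and + or − after a name marks a limma call. Most points lie inside the dotted lines. Ctsc and Ctss lie past the lower dotted line in both fusion lines, as Atp6v1h does in the FIP1L1-PDGFRA line.

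The SD of the log2 ratios over these genes was 0.34 in the ETV6-PDGFRB line, 0.37 in the FIP1L1-PDGFRA line and 0.18 in IL3 cells, against 0.50, 0.51 and 0.19 over all genes. The median ratio was 0.12, 0.13 and -0.01 in the 3 lines, against 0.03, 0.05 and 0.01 over all genes. With hybridization control scaling the medians of the list turned negative, at -0.06 and -0.14 in the fusion lines, and lay 0.08 above the median of all genes in both, as compared with 0.09 and 0.08 on the deposited scale.

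**Figure D3:**
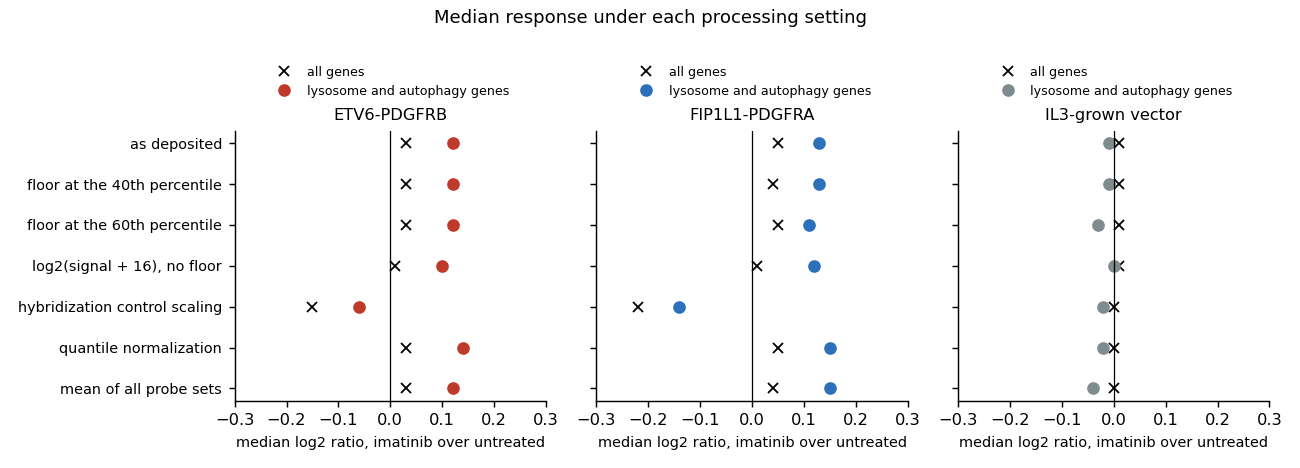
Median log2 ratio, imatinib over untreated, for the lysosome and autophagy genes (circles) and for all genes (crosses), in 1 panel per cell line and 1 row per processing setting. In both fusion lines the circles lie to the right of the crosses in every row, and both move below 0 with hybridization control scaling.

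Whether the fusion lines responded differently from IL3 cells was tested as an interaction in limma over all 6 arrays. None of the 43 genes passed, as 0% of all genes did, and 4 had an unadjusted p under 0.05 (9.30%, against 17.3% of all genes). Those were Ctsc, Mcoln1, Map1lc3b and Ctss, the last with both IL3 arrays set to the floor, and the lowest adjusted p of any gene was 0.114. The values in IL3 cells given above are each from 1 array per treatment.

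Before imatinib, most ratios between the lines were under 1.5-fold, and Ctss stood out. It was below the floor in untreated IL3 cells, so that ETV6-PDGFRB cells had at least a 2.14-fold higher signal and FIP1L1-PDGFRA cells at least a 4.39-fold higher one. In limma over the 3 untreated arrays 0 of 42 genes tested were higher and 0 lower, against 0.516% and 0% of all genes, and 1 had an unadjusted p under 0.05 (2.38%, against 5.10% of all genes). That gene was Ctss, which was tested only because its fusion arrays were above the floor, and nothing is read from its p. IL3 supply, selection and the fusion gene cannot be told apart here, and the lone IL3 array is assumed to vary like the fusion lines.

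Past 1.5-fold, Ctss and Tpp1 were higher in untreated ETV6-PDGFRB than in IL3 cells, 2 of 43 genes with a ratio, against 6.41% of all genes. Tpp1 was 625 against 410, a 1.53-fold difference, and its second probe set had a log2 ratio of 0.75. In the FIP1L1-PDGFRA line Ctss alone passed that limit, 1 of 42, against 4.12% of all genes. None was lower past 1.5-fold in either line, against 3.42% and 2.35% of all genes. For Lamp2 the probe set used gave a log2 ratio of 0.29 in the ETV6-PDGFRB line, while others gave 0.59, 0.73 and 0.33.

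**Figure D4:**
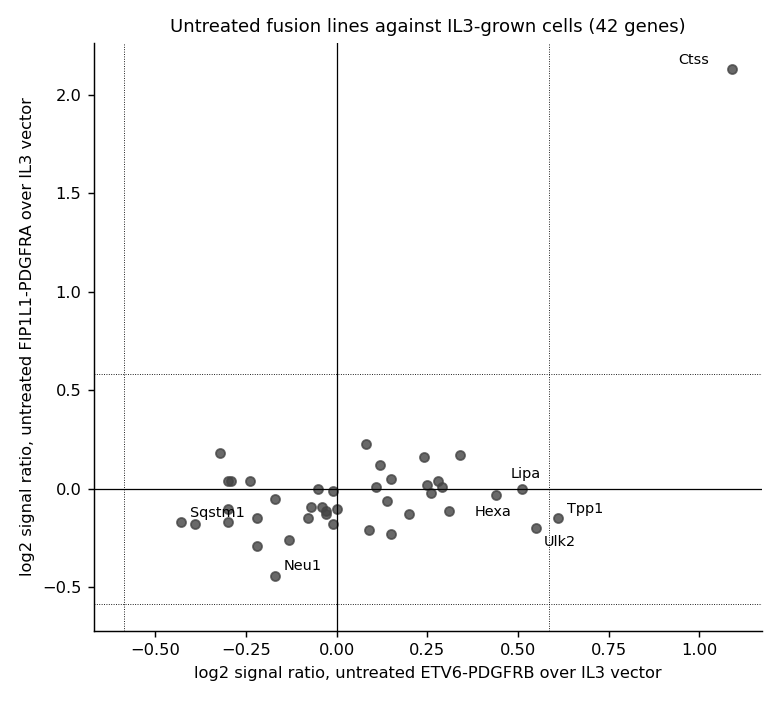
Log2 signal ratio of each untreated fusion line over untreated IL3-grown vector cells for the 42 genes with both ratios, 1 point per gene, with dotted lines at 1.5-fold; names are given where a ratio exceeds 0.4 either way. Ctss lies far to the upper right, as a lower bound because its IL3 signal was below the floor, and Tpp1, Ulk2, Lipa and Hexa lie to the right, with FIP1L1-PDGFRA ratios between -0.20 and 0.00.

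The untreated fusion lines differed from each other by over 1.5-fold for 3 of 43 genes. Tpp1 (1.69-fold) and Ulk2 (1.68-fold) were higher in the ETV6-PDGFRB line, against 5.09% of all genes, and Ctss was 2.05-fold higher in the FIP1L1-PDGFRA line, against 3.02%. Other probe sets differed less, at 87.2 against 63.0 for Tpp1, and at 34.2 against 27.1 and 25.4 against 17.3 for Ulk2. The last signal is below the floor, and none of these differences reached 1.5-fold. Under that limit, Lipa (1.42-fold), Hexa (1.39-fold) and Gabarap (1.33-fold) were higher in the ETV6-PDGFRB line. Ctsc (1.42-fold), Ctsz (1.27-fold) and Mcoln1 (1.25-fold) were higher in the FIP1L1-PDGFRA line. Of the mast cell and basophil markers, the granule protease genes Cpa3 (814 against 94.7) and Cma1 (2574 against 113) were higher in the ETV6-PDGFRB line. So were Gata2 (567 against 353) and Hdc (64.9 against 24.2). Mcpt8 (60.7 against 4.95) and Mcpt4 (33.2 against 1.41) were above the floor there and below it in the FIP1L1-PDGFRA line. The remaining 7 of the 13 markers were below the floor on every array. The part of these markers in the differences was not tested. With 1 array per line these differences have no test.

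Further genes of the same systems came from 5 lists of 199 genes. Of 125 tested 19 rose (15.2%) and 7 fell (5.60%), against 13.5% and 12.4% of all genes, with a median log2 change of 0.17. Among 35 other genes of the autophagy machinery 6 rose and 3 fell, and among 27 genes of the TFEB family, mTORC1 and nutrient sensing 5 rose and 3 fell. Among 23 other hydrolases 5 rose and 0 fell, among 28 other membrane and sorting genes 3 rose and 1 fell, and among 12 other pump subunits 0 passed.

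The genes of these lists that passed a log2 change of 1 were Irgm1, Trp53inp1 and Ulk1. Irgm1, an interferon-induced GTPase also linked to autophagy, went from 760 to 115, from 607 to 90.9 and from 57.9 to 58.4, and fell by 2.73 ± 0.08 (limma adjusted p = 7.97e-04). Trp53inp1, which binds ATG8 proteins, went from 54.2 to 187, from 60.2 to 156 and from 55.8 to 59.8. Ulk1, the relative of Ulk2, went from 22.3 to 50.1, from 14.5, below the floor, to 50.6, and from 25.6 to 29.0. Its call was lost at the 60th percentile floor (limma adjusted p = 0.0629) and with the mean of all its probe sets (log2 change 0.37, adjusted p = 0.0565).

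Other genes near these in function are named here after their values were seen. Rb1cc1, the scaffold of the ULK kinase complex, went from 47.3 to 91.5, from 50.6 to 87.8 and from 47.4 to 49.8, and rose by 0.87 ± 0.09 (limma adjusted p = 0.00729). The autophagy genes Vmp1 (415 to 269 and 537 to 346 in the fusion lines, 432 and 425 in IL3 cells) and Atg2b (50.3 to 23.1 and 59.4 to 32.4, with 44.6 and 48.2) fell. Mitf, of the family of Tfeb, fell by 0.47 ± 0.12 (adjusted p = 0.0403), with signals of 106 and 75.1, 105 and 77.0, and 131 and 156. Flcn, which controls the placing of TFEB through mTORC1, rose by 0.56 ± 0.12 (adjusted p = 0.0320), with signals of 132 and 224, 141 and 180, and 142 and 146. Scarb2, the sorting receptor of glucocerebrosidase, went from 111 to 150, from 78.4 to 122 and from 78.6 to 81.3, and rose by 0.54 ± 0.10 (adjusted p = 0.0191).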

How the data were processed

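RNA of 6 Ba/F3 cultures was hybridised to Affymetrix arrays. The deposited values are intensity signals on a linear scale. The submitters' processing notes name GCOS 1.4.0 and MAS5 as the software, and its settings are not given in the sources used here. Each array's mean after trimming 2% at each end was 100.0, so arrays had been scaled alike. Of 22690 probe sets, 20380 had 1 symbol in the platform annotation, 691 several and 1619 none or were controls. Signals below the floor were set to it. limma 3.58.1 (R 4.3.3) was fitted with lmFit and eBayes to log2 signals of 6808 genes, those that cleared the floor on 2 arrays or more. This fit had 2 residual degrees of freedom, to which eBayes added 3.10. The fit was tested on simulated data with equal noise for all genes, no floor and the same response in both fusion lines. The arrays differ from that setting, so the simulation does not show that the calls hold. The number of arrays limits the precision, and GRCm38.p6 promoters come from RefSeq.

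Genes, lists, motifs and tests were chosen with earlier results of these data known. The rule for named genes took all 50 of the list, and from other lists those with an adjusted p under 0.05 and a log2 change of at least 1. Rb1cc1, Vmp1, Atg2b, Mitf, Flcn and Scarb2 fall outside it and were chosen after their values were seen. Alternatives were floors at the 40th and 60th percentiles, log2(signal + 16), hybridization control scaling, quantile normalization, probe set means and other sets of arrays.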

Additional observations from a re-analysis of the deposited data

Results flagged for a closer look

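Atg7, the E1-like enzyme gene of autophagy, was the gene of the list whose ratios had opposite signs in the 2 fusion lines with both beyond 0.19, the SD of all log2 ratios in the IL3 pair. Its signal went from 31.7 to 21.6 in ETV6-PDGFRB cells, from 26.8 to 34.0 in FIP1L1-PDGFRA cells and from 26.0 to 30.8 in IL3 cells, a difference in log2 response of -0.89 between the fusion lines. The difference was not tested, and all 6 signals lay close to the floor of 20.1. No group held enough arrays to look for an outlying array.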

How the results depend on the processing

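The counts of called genes were small and moved with most settings. Against 5 genes that rose and 2 that fell with imatinib in the fusion lines (limma), a floor at the 40th percentile gave 2 that rose, log2(signal + 16) gave 1, the mean of all probe sets gave 3, the 4 fusion arrays alone gave 2 that rose and 3 that fell, and hybridization control scaling gave 2 that rose and 5 that fell. Without the line as a block 0 rose and 0 fell. With either fusion line left out, a setting chosen after seeing the data that leaves 1 residual degree of freedom, the counts ranged from 0 to 0. For untreated fusion lines against IL3 cells, hybridization control scaling called 1 gene higher, Ctss, in place of 0. Its IL3 signal is at the floor, and that fit gave all genes the same variance (infinite prior degrees of freedom), so nothing is read from the call. The interaction stayed at 0 genes under the 6 settings run on it. None of the 7 called genes reversed its sign in a fit that could be made; Ctss could not be fitted without FIP1L1-PDGFRA. Over all genes, 916 rose and 841 fell, which became 588 and 626 with the 40th percentile floor, 419 and 470 with log2(signal + 16), 395 and 1880 on the hybridization control scale, 667 and 668 with the 4 fusion arrays, 72 and 148 without the block and 0 and 0 with a fusion line left out. Over all genes the untreated comparison had 34 higher and 0 lower, which became 21 and 0 with the 40th percentile floor, 0 and 0 with log2(signal + 16), 93 and 9 on the hybridization control scale, and 10 and 0 with probe set means. The interaction over all genes gave 10 lower with the 60th percentile floor in place of 0.

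Counts past 1.5-fold and 2-fold moved by 1 to 3 genes. In ETV6-PDGFRB cells, 1.5-fold higher went from 1 to 2 with the 40th percentile floor and with probe set means, 1.5-fold lower from 2 to 1 with the 60th percentile floor, 2-fold higher from 0 to 1 with probe set means, and 2-fold lower from 1 to 0 with the 60th percentile floor and with log2(signal + 16). In FIP1L1-PDGFRA cells, 1.5-fold higher went from 2 to 0 with the 60th percentile floor and to 1 with log2(signal + 16) and with hybridization control scaling. There 2-fold higher went from 1 to 0 with these 3 settings and with probe set means, and 2-fold lower from 0 to 3 with hybridization control scaling. In IL3 cells, 1.5-fold higher went from 1 to 0 with the 60th percentile floor and with log2(signal + 16), and 1.5-fold lower from 0 to 1 with the 40th percentile floor and with probe set means, which also gave 1 gene past 2-fold lower. The medians turned to -0.06 and -0.14 in the fusion lines with hybridization control scaling. The causes were not tested, and signals near the floor limit Npc1, Cln3, Ctss, Atg7, Ulk2 and Wipi1. The main fit already pairs the arrays of each line, and the labels number no replicates by which other pairs could be made.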

Other observations

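Probe sets of the same gene differed for several genes. For Ctsz, cathepsin Z, the probe set used had signals of 715 and 837, 906 and 845, and 879 and 912, while a second one had 314 and 189, 300 and 189, and 229 and 186, so it was lower with imatinib in all 3 lines. For Tpp1 the probe set used had log2 ratios of -0.12 and 0.39 in the fusion lines, while the second had 0.63 and 0.69, with 0.26 in IL3 cells. For Atg12 a second probe set had 0.53 and 0.47, with -0.17 in IL3 cells, beside 0.19 and 0.46 for the one used. For Psap it had 0.41 and 0.33, with -0.04 in IL3 cells, beside 0.12 and 0.36. Of the 7 called genes, 3 had other probe sets above the floor on at least 2 arrays, and all 5 of these went the same way as the call in both fusion lines.

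Some genes moved in IL3 cells about as much as in a fusion line. The log2 ratios of Atp6v1h were -0.43, -0.75 and -0.45 for ETV6-PDGFRB, FIP1L1-PDGFRA and IL3, and Wipi2 had 0.13, -0.20 and -0.43. A second Wipi2 probe set, above the floor on all 6 arrays, had -0.09, 0.16 and 0.33, the opposite sign in each line. In the interaction fit, which no gene of the list passed, the fusion response minus the IL3 response was -0.14 ± 0.23 for Atp6v1h. For Wipi2, with the probe set used, it was 0.39 ± 0.23. The IL3 ratios alone, from 1 array per treatment, have no test.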
